A study of Mus musculus with 6 samples.

Results

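The replication-dependent histone genes encode the H1, H2A, H2B, H3 and H4 proteins that package DNA into chromatin, and they were examined here in a limb muscle, the tibialis anterior of the shin, of adult mice. RNA was measured in 3 wild-type (WT) muscles, whose sample titles begin with C57 and carry the numbers 1, 3 and 4, and in 3 muscles of Dock3 knockout mice (Dock3 KO), numbered 1, 2 and 3. Dock3 is a guanine nucleotide exchange factor for the small GTPase Rac. The knockout allele, the strain of the knockout mice, their ages beyond adult and whether the muscles of a genotype came from different mice are not given in the sources used here, so the p-values below measure the spread between these muscles. Members were the rows whose GENCODE M21 symbol begins with Hist1h, Hist2h, Hist3h or Hist4h and whose value was above 0 in at least 1 sample. This rule took 67 of the 54393 rows of the table. A further 3 histone rows, Hist1h2aj, Hist1h2ba and Hist2h3c1, were listed at 0 in all 6 samples, while the sparsest member, the linker histone gene Hist1h1t, had a value of 0.824 in WT 4 and 0 elsewhere. The members comprised 6 H1, 19 H2A, 18 H2B, 11 H3 and 13 H4 genes. Of these, 65 are annotated as protein-coding and 2, Hist1h2al and Hist3h2bb-ps, as pseudogenes. The Hist1 cluster on chromosome 13 held 54 members, Hist2 on chromosome 3 held 9, Hist3 on chromosome 11 held 3, and Hist4h4 lies alone on chromosome 6.

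These genes supply histones when DNA is copied, and their transcription is tied to S phase through the coactivator NPAT. Their mRNAs typically have no introns, as in 62 of the 67 transcript models here, and, unlike other mRNAs, typically end in a conserved stem-loop in place of a poly(A) tail, which the stem-loop binding protein SLBP recognises. In differentiated tissue, where most nuclei no longer divide, some members are also known to give polyadenylated transcripts. The libraries were made from total RNA depleted of ribosomal RNA, so transcripts without a poly(A) tail were not selected against.

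Only 2 histone genes, Hist1h4m and Hist1h4n, passed the test between genotypes, in opposite directions. They lie on opposite strands of chromosome 13, 19619 bases apart, at chr13:21811746-21812147 (+) and chr13:21831767-21832196 (-) of GRCm38. Their GENCODE M21 transcript models of 1 exon were aligned over 402 bases and differed at a single base, G36A, counted from 1 at the 5′ end of the transcript with the base of Hist1h4m first. That base lies 3 bases before the start codon, in the 5′ UTR. The Hist1h4n model runs 28 bases longer. The 30 bases around the difference, transcript bases 24 to 53, are shown because they hold the only letter by which the aligned stretches of the models can be told apart, in capitals (chr13:21811769-21811798 on the plus strand and chr13:21832144-21832173 on the minus strand).
Hist1h4m: agttttgtcttcGtcatgtctggtcgtggc
Hist1h4n: agttttgtcttcAtcatgtctggtcgtggc

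All 13 H4 members encode the same protein of 103 residues, with the first methionine counted. The 312 coding bases of Hist1h4m and Hist1h4n are identical, whereas the coding sequence of Hist4h4, the H4 gene on chromosome 6, differs from each of the others at 40 to 46 positions. It differs from that of Hist1h4m at 42 positions, 27 of which fall in the first 150 coding bases and are in capitals in both sequences (chr13:21811784-21811933, plus strand, and chr6:136804230-136804379, minus strand). The sequences are those of the GENCODE M21 transcripts, and they are shown because Hist4h4 has no near-identical copy in its coding bases, whereas the genes of the pair are identical there to each other.
Hist1h4m: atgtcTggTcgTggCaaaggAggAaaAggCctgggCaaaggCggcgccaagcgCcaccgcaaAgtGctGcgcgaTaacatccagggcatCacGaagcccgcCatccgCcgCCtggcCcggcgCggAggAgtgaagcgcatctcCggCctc
Hist4h4: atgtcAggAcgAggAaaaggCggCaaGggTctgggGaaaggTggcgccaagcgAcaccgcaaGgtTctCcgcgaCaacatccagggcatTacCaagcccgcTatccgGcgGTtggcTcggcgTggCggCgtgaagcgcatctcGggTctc

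The histone stem-loop was searched for after the stop codon, on the transcript strand, by a consensus of 16 bases with variable positions. It was found in 44 of the 67 members, 21 to 58 bases after the stop codon (median 31.5). Anywhere in the longest model of each gene, the motif occurred in 0.853% of 55450 genes. The 3 most frequent forms are shown because the H4 form differs from the other forms within the stem. Capitals mark, in the first, the bases that differ from the H4 form and, in the others, those that differ from the first.
24 genes of H1, H2A, H2B and H3: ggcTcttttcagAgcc
7 genes of H4: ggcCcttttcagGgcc
6 genes of H1, H2B and H3: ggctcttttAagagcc
Both genes of the pair and Hist4h4 carry the H4 form. Of the 23 members in which no match was found, 14 have models that end within 30 bases of the stop codon.

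Upstream of the transcript starts given by RefSeq (GRCm38.p6), the 249 bases of Hist1h4m and Hist1h4n that could be compared were identical. The CCAAT box, the TATA box (as TATAAA) and an H4 promoter element (as GGTCCG) were searched for on both strands of the 250 bases upstream of each start. A member was counted if any of its listed promoters matched, whereas the shares over all promoters count each promoter singly. CCAAT was found in 50 of the 60 members with a listed promoter, against 33.9% of 32851 promoters in all. TATAAA was found in 28 of the 60 members, against 12.4% of all promoters. GGTCCG was found in 11 of the 60 members, against 6.72% of all promoters, and 9 of those 11 were among the 12 H4 genes with a promoter. The 150 bases before the start are printed for the pair, represented by Hist1h4m (chr13:21811596-21811745, plus strand), and for Hist4h4 (chr6:136804432-136804581, minus strand). Capitals mark matches to the letters TATAAA and GGTCCG, at any distance from the start.
Hist1h4m: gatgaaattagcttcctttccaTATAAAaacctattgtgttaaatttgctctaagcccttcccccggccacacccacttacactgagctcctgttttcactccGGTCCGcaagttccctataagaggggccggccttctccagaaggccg
Hist4h4: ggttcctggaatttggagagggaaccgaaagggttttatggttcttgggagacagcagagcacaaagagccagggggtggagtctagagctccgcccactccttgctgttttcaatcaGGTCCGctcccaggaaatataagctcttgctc
In the stretch searched, Hist4h4 held GGTCCG without TATAAA or CCAAT, and the pair held GGTCCG and TATAAA without CCAAT. The TATAAA match of Hist1h4m stands near the far end of the printed bases. Both printed sequences hold the letters tataag nearer the start, which were not searched for. Whether any match acts as a promoter element was not tested.

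The values are the authors' normalized counts, which place the 6 samples on a common scale. Dock3 itself was 169, 161 and 118 in WT and 22.4, 1.78 and 1.54 in Dock3 KO, so its level was lower in every library labelled Dock3 KO (log2 difference -4.76, SE 0.75, limma adjusted p = 0.0140). Estimated depth lay between about 21654500 and 32457400 reads per sample, and 1 read was worth 0.775 to 1.52 normalized counts. Dock3 KO 1 and 2 stood apart: Gm42418 and Lars2 together took 17.9% and 20.3% of their summed values, against 3.00% to 3.64% in the other 4 samples. Summed over 8 skeletal muscle markers such as Acta1 and Ckm, muscle transcripts reached 1437630 to 1564430 in WT and 1401480 to 1632160 in Dock3 KO. Markers of satellite cells, macrophages, endothelium and Schwann cells had overlapping sums in the genotypes, and no marker was at 0 in every sample. Single markers could still differ. All 7 macrophage markers had a log2 difference below 0, from -0.40 to -0.12, and none passed (limma, smallest adjusted p = 0.593). Both signs occurred in the other lists just named. Pax7, a satellite cell marker, was 71.9, 72.0 and 67.6 in WT and 71.0, 19.4 and 24.6 in Dock3 KO (log2 difference -1.09, limma adjusted p = 0.412). Because cells of several types were measured together, fewer cells of a type and less RNA per cell cannot be told apart. Summed lymphocyte markers ranged from 37.4 to 40.1 in WT and from 31.0 to 94.6 in Dock3 KO, and erythroid markers from 28549 to 54921 and from 36961 to 97690. Of 4 fibro-adipogenic markers, Col15a1 passed (922.8 ± 89.0 in WT, 1769 ± 264 in Dock3 KO, SD, n = 3, limma adjusted p = 0.0134), while their sums overlapped. The others did not pass and had both signs, with log2 differences of 0.15 for Pdgfra, -0.28 for Dcn and -0.23 for Ly6a. The part of these other cells in the histone values was not tested.

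The histone genes as a whole reached similar levels in both genotypes. Their summed values were 10732, 12282 and 11776 in WT and 12169, 10036 and 10323 in Dock3 KO. These ranges overlapped, with means of 11597 ± 790 and 10843 ± 1158 (SD, n = 3 per group) and a ratio of 0.935. As a share of each sample's total the sums were 0.0428%, 0.0522% and 0.0444% in WT and 0.0364%, 0.0304% and 0.0410% in Dock3 KO, without overlap. Gm42418 and Lars2 took a large share of the total in Dock3 KO 1 and 2. In Dock3 KO 3, which also lay below WT on that scale, they took 3.64%, beside 3.00% to 3.51% in WT. Their part in the lower values was not tested. Between 57 and 62 histone genes were above 0 in each sample. A few genes carried most of the sum: the 5 with the highest mean held 54.9% of it and the 10 highest held 75.7%. The other end of the scale was sparse. The 17 members with a mean under 10, which were not tested, had means of 0.137 to 9.07, a highest single value of 18.3 and 33 of 102 values at 0.

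None of the 5 classes separated the genotypes. H4, of the nucleosome core, summed to 3399, 4641 and 4204 in WT and 4118, 3026 and 3820 in Dock3 KO (means 4082 ± 630 and 3655 ± 564, SD, n = 3). H3, its partner in the core tetramer, summed to 590, 736 and 743 against 783, 547 and 588 (690 ± 86.5 and 639 ± 126). In both classes Dock3 KO 1 lay within or above the WT range and Dock3 KO 2 below it. H2A and H2B form the dimers that flank the tetramer. H2A reached 1379, 1707 and 1834 in WT and 1987, 1868 and 1727 in Dock3 KO (1640 ± 234 and 1861 ± 130), and H2B reached 1560, 1519 and 1718 against 1745, 1683 and 1703 (1599 ± 105 and 1710 ± 31.4). H1, the linker histone that binds between nucleosomes, summed to 3804, 3678 and 3276 in WT and 3537, 2912 and 2485 in Dock3 KO. Its means were 3586 ± 275 and 2978 ± 529, the class ratio furthest from 1 on the lower side at 0.830, and Dock3 KO 1 lay inside the WT range.

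**Figure D1:**
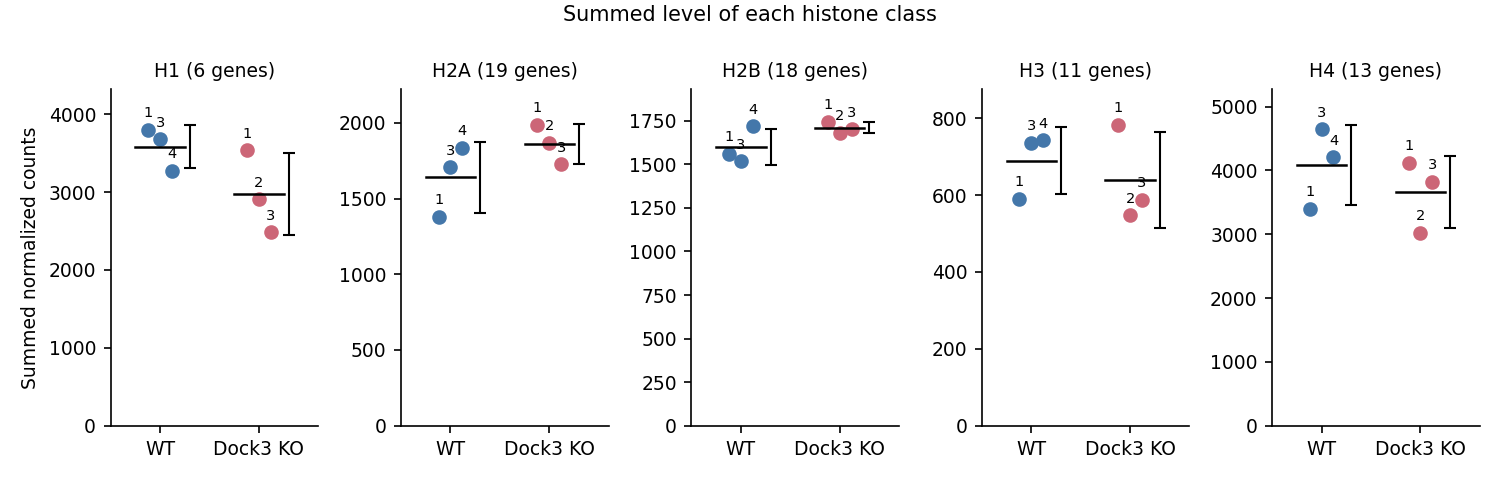
Summed normalized counts of each histone class (vertical axes, each from 0) in WT and Dock3 KO, with 1 numbered point per sample, the mean as a line and the SD as a bar (n = 3). The points of the genotypes overlap in all 5 classes, and the H1 sums of 3537, 2912 and 2485 in Dock3 KO reach furthest below WT.

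Gene by gene, 2 of the 50 members tested (4%) had a limma adjusted p under 0.05, 1 higher and 1 lower in Dock3 KO. Over all 16031 genes tested the share was 1.03%, with 0.443% higher and 0.586% lower. In 7 of the 50 members (14%) there was no overlap between WT and Dock3 KO, against 16.2% of all genes tested. Of these, 2 lay above WT, against 7.6% of all genes, and 5 below, against 8.65%. An unadjusted limma p under 0.05 was found for 10 of the 50, against 1685 of all 16031 genes tested (10.5%). The log2 difference, Dock3 KO minus WT, was above 0 in 23 members and below 0 in 27, with a median of -0.03 beside -0.01 over all genes, and any value of Hist1h4m above 0 leaves that median as it is. In absolute terms the median log2 difference of the members was 0.29, against 0.20 over all genes. The share without overlap was thus near that of all genes. The share that passed, the share with an unadjusted p under 0.05 and the absolute median were higher in the members.

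**Figure D2:**
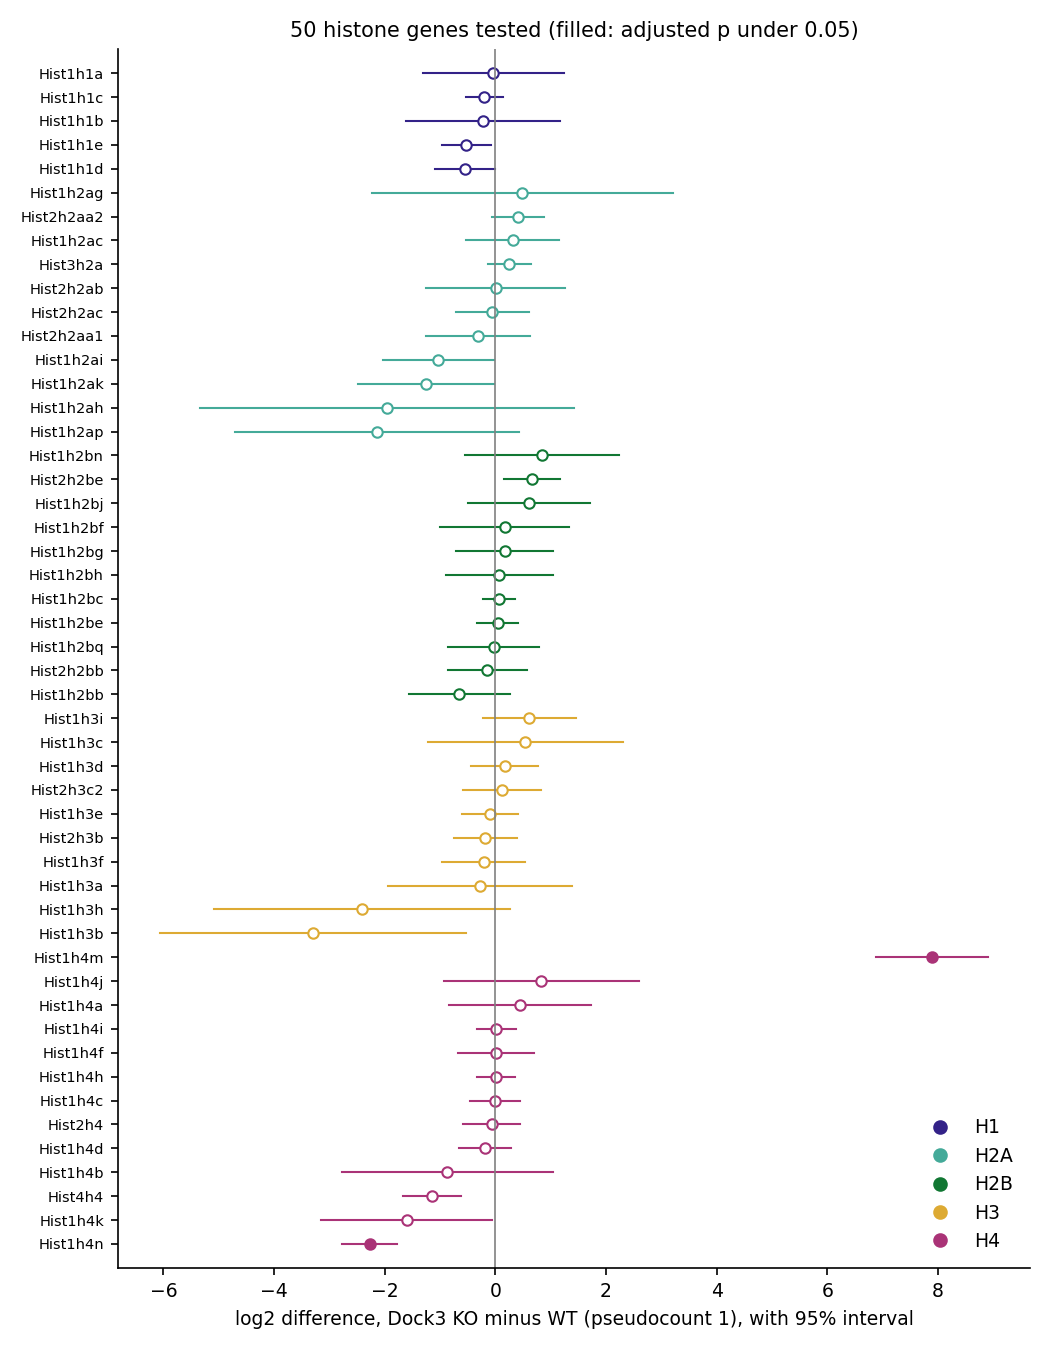
Log2 difference between Dock3 KO and WT (horizontal axis, pseudocount 1) with its 95% interval for the 50 histone genes tested, ordered by class and coloured by class. The 2 filled points, Hist1h4m at the far right and Hist1h4n at the left end of H4, are the genes with an adjusted p under 0.05, and the place of Hist1h4m depends on the pseudocount because it was listed at 0 in WT.

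Hist1h4m was listed at 0 in WT 1, 3 and 4 and at 189, 268 and 262 in Dock3 KO 1, 2 and 3. All 3 Dock3 KO samples were therefore high and all 3 WT samples at 0, and no fold change is given against a group listed at 0. The mean in Dock3 KO was 239 ± 44.1 (SD, n = 3), and the limma adjusted p was 1.86e-05. Hist1h4n had the reverse order. It was 371, 454 and 392 in WT and 111, 76.9 and 66.4 in Dock3 KO, with no overlap. Its means were 405 ± 43.2 and 84.9 ± 23.5, and its log2 difference was -2.27 (SE 0.22, limma adjusted p = 0.000743). At the estimated worth of 1 read, the Hist1h4m values correspond to about 135, 176 and 338 reads in the 3 Dock3 KO samples.

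Added together, the genes of the pair differed far less. Their sum was 371, 454 and 392 in WT and 300, 345 and 328 in Dock3 KO, all of the latter below WT, with means of 405 ± 43.2 and 324 ± 22.6 and a ratio of 0.80. As 1 row of the fit the sum had a log2 difference of -0.32 (SE 0.15, 95% interval -0.66 to 0.02, unadjusted p = 0.0653, limma adjusted p = 0.513), which did not pass. The division of that sum had no overlap between genotypes. Hist1h4m took 0% of it in every WT sample and 62.9%, 77.7% and 79.8% of it in Dock3 KO 1, 2 and 3. The pair made up 10.9%, 9.78% and 9.32% of all H4 in WT and 7.28%, 11.4% and 8.60% in Dock3 KO, which overlapped. The submitters' processing notes name Salmon, which estimates how reads that match several transcripts are divided. Reads that do not cover transcript base 36 or the extra bases of the Hist1h4n model match both genes, and how the deposited values divided them was not tested.

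**Figure D3:**
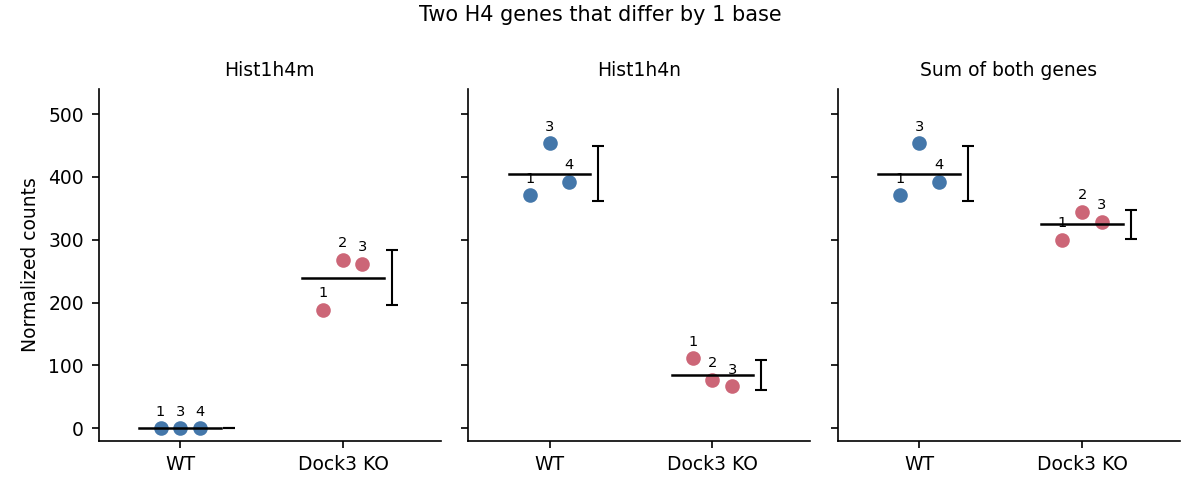
Normalized counts (vertical axis) of Hist1h4m, Hist1h4n and their sum in WT and Dock3 KO, with 1 numbered point per sample, the mean as a line and the SD as a bar (n = 3). Hist1h4m is at 0 in WT and 189 to 268 in Dock3 KO, Hist1h4n is 371 to 454 in WT and 66.4 to 111 in Dock3 KO, and the sums of 371 to 454 and 300 to 345 lie close together.

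Near-identical copies were common among these genes. Transcripts at least 95% identical over at least 50% of the shorter model and 100 bases linked 51 of the 67 members to another gene, in 7 sets of which the largest held 25 genes. Links were chained, so some genes of a set can be less alike than the threshold. The H2A genes Hist2h2aa1, Hist2h2aa2 and Hist2h2ac thus fell in a set with H3 genes. Sets linked at 99% identity, over a larger share of the shorter model, were also summed before the fit. Then 0 of 41 histone rows passed (limma, smallest adjusted p = 0.0611), while 1.02% of all rows passed. Of the 41, 7 had an unadjusted p under 0.05, beside 10.5% of all genes in the fit without summing. In this setting Hist2h2aa1 and Hist2h2aa2 still shared a row with the H3 genes Hist2h3b and Hist2h3c2. With sets linked at 95% identity summed, 0 of 20 histone rows passed (limma, smallest adjusted p = 0.0611), again beside 1.02% of all rows. Of the 20, 4 had an unadjusted p under 0.05. The 6 H4 genes of 1 such set, Hist1h4b, Hist1h4h, Hist1h4j, Hist1h4k, Hist1h4m and Hist1h4n, then had a joint log2 difference of -0.11 (limma adjusted p = 0.874). Values of other copies were unequal as well. Hist2h2aa1 and Hist2h2aa2, H2A genes of the chromosome 3 cluster with transcripts identical over 528 bases, summed to 838, 1089 and 1230 in WT and 1402, 1301 and 1103 in Dock3 KO. Hist2h2aa1 took 33.9%, 17.3% and 16.0% of that sum in WT and 22.6%, 16.4% and 7.28% in Dock3 KO. Hist1h3h was 78.1, 34.7 and 75.3 in WT and 0, 27.9 and 48.1 in Dock3 KO, but with its copies Hist1h3g and Hist1h3i the sum was 119, 149 and 171 against 168, 136 and 137. A set of 8 H2A genes of the Hist1 cluster (Hist1h2ac, ad, af, ag, ah, ai, ao and ap) summed to 173, 131 and 131 in WT and 106, 104 and 118 in Dock3 KO, a ratio of 0.754 without overlap. As 1 row of the fit this set did not pass (log2 difference -0.39, 95% interval -0.86 to 0.07, limma adjusted p = 0.568). Reads from stretches that such copies share match more than 1 gene, so values of single genes in these sets are uncertain. How those reads were divided was not tested.

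Hist4h4, whose coding sequence stands furthest from the other H4 genes, was also lower in Dock3 KO without passing the test. Its values were 331, 568 and 346 in WT and 203, 150 and 198 in Dock3 KO. The groups did not overlap, and WT 3 lay well above the other WT samples. The means were 415 ± 133 and 184 ± 29.1 (SD, n = 3), a ratio of 0.443, with a log2 difference of -1.14 (SE 0.23, 95% interval -1.66 to -0.61, limma adjusted p = 0.0608). It passed in 3 of 19 alternatives and not in the other 16, with adjusted p from 0.0236 without the filter on low values to 0.612 with the Gm42418 covariate, and from 0.0709 to 0.218 when 1 sample was left out. Its share of all H4 was 9.72%, 12.2% and 8.22% in WT and 4.94%, 4.97% and 5.17% in Dock3 KO. The annotated model of Hist4h4 (chr6:136801553-136804415, minus strand) runs 2445 bases past its stem-loop.

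**Figure D4:**
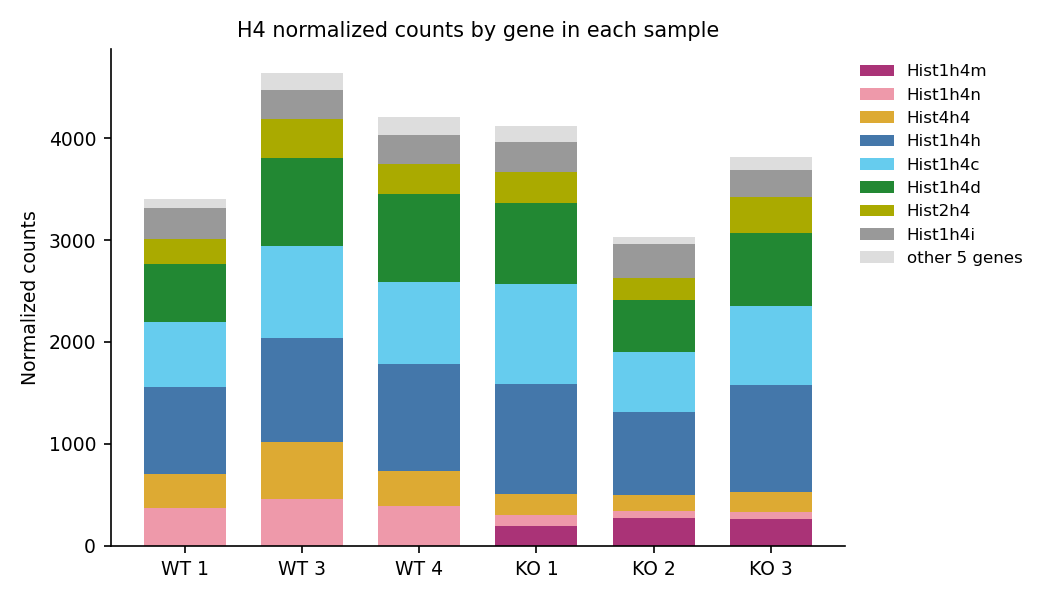
H4 normalized counts (vertical axis) in each sample, stacked by gene. Hist1h4m (purple) appears only in the Dock3 KO bars, where Hist1h4n (pink) shrinks, and Hist4h4 (ochre) is 150 to 203 in Dock3 KO against 331 to 568 in WT, while most of each bar belongs to other H4 genes.

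The remaining 10 H4 genes summed to 2698, 3620 and 3467 in WT and 3614, 2531 and 3294 in Dock3 KO (3261 ± 494 and 3146 ± 556, SD, n = 3), a ratio of 0.965. Their smallest limma adjusted p was 0.457, that of Hist1h4k, which was 31.5, 74.5 and 55.4 in WT and 17.9, 4.58 and 46.1 in Dock3 KO. The most abundant, Hist1h4h, was 858, 1020 and 1050 in WT and 1087, 814 and 1056 in Dock3 KO, with a log2 difference of 0.01 (95% interval -0.34 to 0.35, limma adjusted p = 0.996). Hist1h4c was 638, 899 and 803 against 984, 595 and 767, with a log2 difference of -0.01 (95% interval -0.46 to 0.44, limma adjusted p = 0.994). The small differences of these genes from 0 changed sign under some alternatives, Hist1h4h to -0.27 with equal totals and Hist1h4c to 0.20 with the replicate block. Per kilobase of transcript model, averaged over the 6 samples, Hist1h4h had the highest level of all members at 2086 normalized counts, followed by Hist2h2aa2 at 1794 and Hist1h1c at 1575. Hist1h4c reached 952 and the H2B gene Hist1h2bc 855. On the same scale Hist1h4n stood at 943 in WT and 197 in Dock3 KO, and Hist1h4m at 596 in Dock3 KO, so in each genotype 1 gene of the pair ranked with the more abundant members.

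Among the H1 genes, the log2 differences of all 5 tested members were below 0, from -0.55 to -0.033. This uniform direction did not hold in 6 alternatives, in each of which 1 H1 gene was above 0: quantile scaling (highest log2 difference 0.048), the Gm42418 covariate (0.15), the replicate block (0.12), and leaving out Dock3 KO 3 (0.25), WT 4 (0.15) or WT 1 (0.053). None passed the test (limma). An unadjusted p under 0.05 was found for 2 of these 5, beside 10.5% of all genes tested. Hist1h1c, the most abundant H1 gene by summed value and one known to be expressed in non-dividing cells, was 2905, 2602 and 2351 in WT and 2661, 2274 and 1946 in Dock3 KO (log2 difference -0.20, limma adjusted p = 0.724). Those ranges overlapped. Hist1h1e was 729, 947 and 802 in WT and 758, 540 and 454 in Dock3 KO, where only Dock3 KO 1 reached the WT range (log2 difference -0.52, limma adjusted p = 0.359). Its locus overlaps Hist1h2be and Gm11398 on the same strand, so its reads may be shared with them. Hist1h1d (chr13:23553262-23560686, plus strand) was 134, 113 and 101 in WT and 94.2, 79.2 and 64.6 in Dock3 KO, without overlap, and its log2 difference of -0.55 did not pass (limma adjusted p = 0.458).

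Among the H2A genes, Hist2h2aa2 had the highest values, 554, 901 and 1033 in WT and 1086, 1088 and 1023 in Dock3 KO (log2 difference 0.41, limma adjusted p = 0.554). WT 1 was the lowest of the 6, and WT 4 lay within the Dock3 KO range. Hist3h2a, of the small cluster on chromosome 11, was 240, 307 and 325 against 302, 364 and 371 (log2 difference 0.25, limma adjusted p = 0.699). It overlaps Trim17 on the same strand. Hist1h2ak (chr13:21753435-21753827, minus strand) was 28.9, 16.4 and 20.3 in WT and 10.2, 4.36 and 12.7 in Dock3 KO. Hist1h2ai (chr13:21716422-21716814, plus strand) was 34.3, 42.0 and 34.2 in WT and 14.2, 11.3 and 32.7 in Dock3 KO. Neither gene overlapped between genotypes, though Dock3 KO 3 nearly reached WT for Hist1h2ai. The log2 difference was -1.25 for Hist1h2ak (limma adjusted p = 0.458) and -1.03 for Hist1h2ai (limma adjusted p = 0.461).

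Among the H2B genes, Hist1h2bc, another member known to give polyadenylated transcripts, was 905, 954 and 1042 in WT and 1054, 931 and 1046 in Dock3 KO (log2 difference 0.06, limma adjusted p = 0.927). Hist1h2be was 252, 202 and 224 against 216, 243 and 238 (log2 difference 0.04, limma adjusted p = 0.967). Both genes overlapped between genotypes. Hist2h2be (chr3:96221119-96223738, plus strand) was the only tested member besides Hist1h4m whose Dock3 KO values all lay above WT. It was 111, 91.3 and 92.1 in WT and 130, 200 and 144 in Dock3 KO, with means of 98.2 ± 11.3 and 158 ± 37.1 (SD, n = 3) and a log2 difference of 0.66 (SE 0.23, limma adjusted p = 0.310).

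Among the H3 genes, Hist1h3e was 160, 187 and 164 in WT and 215, 132 and 142 in Dock3 KO (log2 difference -0.09, limma adjusted p = 0.938). Hist2h3b was 91.9, 131 and 117 against 125, 76.6 and 100.4 (log2 difference -0.18, limma adjusted p = 0.877). In both, Dock3 KO 1 was the highest Dock3 KO sample and Dock3 KO 2 the lowest. Hist1h3b, also an H3 gene, was 53.5, 5.65 and 45.8 in WT and 0, 0 and 16.8 in Dock3 KO. WT 3 fell among the Dock3 KO values, and the log2 difference of -3.30 did not pass (limma adjusted p = 0.359).

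**Figure D5:**
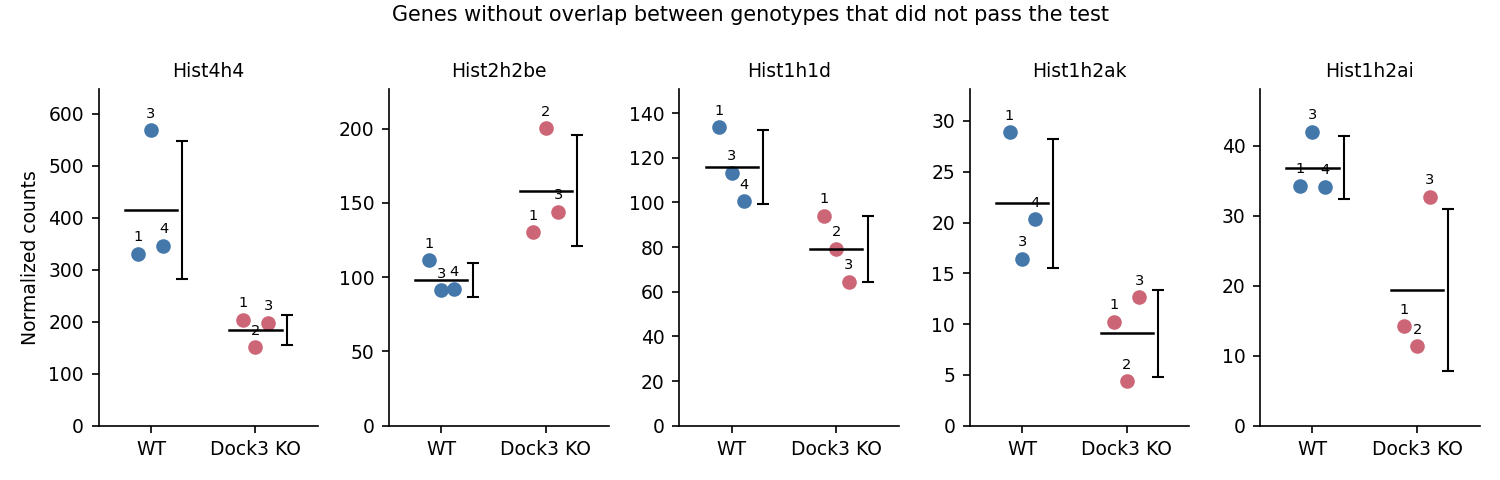
Normalized counts (vertical axes, each from 0) of the 5 tested histone genes whose values did not overlap between WT and Dock3 KO but which did not pass the test, with 1 numbered point per sample, the mean as a line and the SD as a bar (n = 3). Hist2h2be is higher in Dock3 KO, and Hist4h4, Hist1h1d, Hist1h2ak and Hist1h2ai are lower, with adjusted p from 0.0608 to 0.461.

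The position of a gene within the clusters was also described. On chromosome 13, histone genes more than 100000 bases apart were placed in different blocks. The block chr13:21715763-21837530 had 18 members, of which 12 were tested. Of these 12, 2 passed, Hist1h4m and Hist1h4n, beside 1.03% of all genes tested. In 4 of the 12, both genes of the pair included, the genotypes did not overlap, beside 16.2% of all genes. Summed as 1 row, the pair did not pass (limma adjusted p = 0.513). The sum of the block was 747, 848 and 825 in WT and 619, 658 and 684 in Dock3 KO, without overlap (807 ± 52.7 and 654 ± 32.4, SD, n = 3). Without Hist1h4m and Hist1h4n, the other 16 genes summed to 377, 394 and 433 in WT and 319, 313 and 355 in Dock3 KO, again without overlap (401 ± 28.9 and 329 ± 22.7). Some of these genes have near-identical copies outside the block, such as Hist1h2ac for Hist1h2ai and Hist1h3g for Hist1h3h. The block sums can therefore also depend on how shared reads were divided, which was not tested. The larger block chr13:23531050-23764406, with 29 members, summed to 7551, 8213 and 7948 against 8361, 6493 and 6850, which overlapped, and 0 of its 23 tested members passed (limma). The 9 genes on chromosome 3 summed to 1473, 2020 and 2022 in WT and 2290, 2003 and 1937 in Dock3 KO, which overlapped as well.

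Where the transcript model ends also differed among the members. The 22 genes whose models run at least 100 bases past the stem-loop held 61.4% of the summed WT means and 57.8% of the summed Dock3 KO means. The 22 genes whose models end sooner after it held 23.9% and 26.6%, and the 23 without a match held 14.6% and 15.6%. The median level per kilobase was 69.5 normalized counts in the group with long models and 32.5 in that with short ones. Transcripts ending at the stem-loop and longer forms of the same gene share their coding bases, so the deposited values do not tell them apart.

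Genes of related function were also examined. Of 63 tested genes in 4 lists (replacement histone variants, histone mRNA processing, DNA replication, and histone chaperones), 0 passed (limma, smallest adjusted p = 0.254), beside 1.03% of all genes tested, and 5 had an unadjusted p under 0.05, beside 10.5% of all genes. Among 17 tested processing genes, Casp8ap2, which encodes the histone-locus body protein FLASH, was 159, 159 and 222 in WT and 336, 319 and 219.9 in Dock3 KO (log2 difference 0.68, limma adjusted p = 0.271). Npat, the histone gene coactivator, was 350, 209 and 367 against 149, 175 and 218 (log2 difference -0.74, limma adjusted p = 0.292). In both genes the ranges of the genotypes overlapped, by WT 4 and Dock3 KO 3 for Casp8ap2 and by WT 3 and Dock3 KO 3 for Npat. Slbp, the stem-loop binding protein gene, was 135, 142 and 175 against 152, 102 and 109, which overlapped.

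Of 23 tested replication genes, Tk1, a thymidine kinase of S phase, was 44.3, 46.5 and 52.2 in WT and 121, 65.6 and 69.3 in Dock3 KO (log2 difference 0.77, limma adjusted p = 0.383). Mcm3, a subunit of the replicative helicase, was 77.6, 81.9 and 86.8 against 60.7, 63.6 and 50.4 (log2 difference -0.49, limma adjusted p = 0.517). These genes did not overlap between genotypes and lay in opposite directions. Of 13 tested chaperones, Cabin1, part of the HIRA complex that deposits H3.3, was 559, 395 and 388 in WT and 245, 295 and 328 in Dock3 KO (log2 difference -0.62, limma adjusted p = 0.254). Hat1, the acetyltransferase of newly made H4, was 206, 198 and 278 against 254, 278 and 287 and overlapped (log2 difference 0.28, limma adjusted p = 0.673). Of 10 tested variant genes, which are expressed outside S phase as well, H2afx had the values 97.8, 89.98 and 104 in WT and 122, 148 and 106 in Dock3 KO, all above WT, and the smallest adjusted p of the list was 0.639 (limma). H2afy2 was 29.1, 28.4 and 21.4 in WT and 31.3, 35.4 and 39.6 in Dock3 KO, again all above WT (log2 difference 0.42, limma adjusted p = 0.747).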

How the data were processed

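Total RNA was depleted of ribosomal RNA (RiboMinus), made into stranded libraries (SureSelect) and sequenced as read pairs, per the labels' protocols. The submitters' processing notes name Trim Galore 0.4.5, Salmon 0.12.0 and DESeq2 1.22.1 and the builds mm10 and GRCm38. The authors deposited normalized counts, treated here as a signal per gene, because 1 read has no fixed whole value in them and whole reads were not recovered. Count models were therefore not run, and no counting interval is given.

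Values were converted to log2(normalized count + 1), which understates the change of low genes. The 16031 genes with a mean of at least 10 of the 6 samples were fitted together in limma 3.58.1 (R 4.3.3; eBayes with a mean trend, no covariates), with Benjamini-Hochberg adjustment over all of them and a threshold of 0.05. In simulated data 61 of 100 genes with a log2 change of 2, and 88 of 100 with a change of 3, were recovered with 6 false calls among 16031 genes. The simulated noise was independent between genes and samples. These figures therefore do not cover differences shared by a whole sample. All 54393 identifiers matched GENCODE M21. Copies were found with blastn 2.17.0. Sums over classes and blocks were described and not tested, and linked sets of near-identical copies were also summed into rows before a fit.

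The members and lists were chosen with earlier results of these data known. Named were Dock3, histone genes that passed the test or whose groups did not overlap, the 2 highest of each class, the 2 with the smallest p of each related list, and copies of these. Hist1h1t, Hist1h3b, Col15a1, Pax7 and Slbp were named after their values were seen. The alternatives were other pseudocounts, filters, scalings and variance estimates, a replicate block, a Gm42418 covariate, each sample left out, and copies summed at 95% identity. Summing at 99% was chosen after seeing the data. Same-numbered samples showed little shared deviation (correlations 0.0649 for number 1 and 0.00663 for number 3), and the numbers were not used as pairs in the reported fit. These correlations cover only numbers 1 and 3 and cannot exclude shared handling.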

Additional observations from a re-analysis of the deposited data

How the results depend on the processing

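Hist1h4m and Hist1h4n stayed past the threshold in all 17 alternatives in which they were fitted as separate genes (limma adjusted p 5.06e-07 to 0.00269 and 3.01e-05 to 0.0145). With linked copies summed at 95% or at 99% identity, 0 histone rows passed, 0 higher and 0 lower, and both genes of the pair enter in the same row. Hist4h4 passed in 3 of 19 alternatives (adjusted p 0.0236 to 0.612 over all), and the histone genes lower in Dock3 KO then numbered 2: without a filter, with equal totals and with robust variance. Equal totals shifted the median of all genes by -0.27 and gave a median histone log2 difference of -0.30 and a summed log2 difference of -0.37, against -0.03 and -0.10. The median was 0.12 with the replicate block, in which 2 histone genes passed, and 0.054 with the Gm42418 covariate. Only numbers 1 and 3 occur in both genotypes, so WT 4 and Dock3 KO 2 do not inform the difference fitted with the block. Leaving out each sample gave medians from -0.17, without Dock3 KO 1, to 0.0045, without Dock3 KO 2. Genes that did not pass changed sign: with equal totals Hist3h2a (-0.020), Hist1h2bc (-0.21), Hist1h2be (-0.23) and Hist1h4h (-0.27); with quantile scaling Hist1h4h (-0.014); with the block Hist1h3e (0.011), Hist2h3b (0.028) and Hist1h4c (0.20); with the covariate Hist1h4c (0.032). With 1 sample left out, log2 differences ranged from -0.082 to 0.14 for Hist1h4h, -0.036 to 0.12 for Hist1h2be, -0.19 to 0.17 for Hist1h4c and -0.31 to 0.037 for Hist1h3e. The cause of these changes was not tested. Dock3 passed in 13 of 19 alternatives (-5.94 to -3.27). Over all genes the number past the threshold was 57 with the covariate, 127 with the block, 165 in the fit reported and 221 without a filter. Of the 17 members under the filter on low values, 6 never exceeded the worth of 3 reads in any sample.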
